A study of Homo sapiens with 4 samples.

Results

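Bone morphogenetic proteins (BMPs) and transforming growth factor beta (TGF-beta) are secreted ligands that bind paired receptor kinases at the cell surface, which then phosphorylate SMAD transcription factors. Follistatin-type proteins act outside the cell on the ligands. ID proteins are transcribed in response to BMP, and the inhibitory SMADs are induced by the pathway and hold its receptors back, which makes them feedback genes. In glioblastoma, BMP4 is known for driving stem-like tumor cells toward an astrocyte-like state. Described here are the follistatin-related genes FSTL1, FSTL3 and FST, the ligand BMP4, the receptor BMPR2, the ID genes ID1, ID2 and ID3, and the inhibitory SMADs SMAD6 and SMAD7. The list of 10 genes was chosen by the low FSTL1 value of the siRAB38 arrays. The other genes were added for their role beside FSTL1, but with earlier results of these data known. Rows of the expression table were matched to the list by gene symbol. Of the 10 genes, 9 had a row among the 22458 rows with 1 gene symbol, and ID2 was not analysed here.

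The series compared cells of LN229, an established human glioblastoma line, that had received a pool of siRNAs targeting RAB38 (siRAB38, 2 arrays) with cells given a pool of nontargeting siRNAs (NT, 2 arrays). RAB38 is a small GTPase of vesicle transport. Both groups were transfected without serum, received serum to 1.5% a day later and were lysed for RNA 48 h after transfection. The Affymetrix arrays were normalized by RMA, which gives a log2 value for each gene. Each group was thus a single cell line given 1 pool of siRNAs. The study's methods use n for independent experiments in general, which may hold for the arrays too, but the sample labels name no separate cultures, so the errors below describe the spread between arrays, which may in part be technical. In such bulk RNA, fewer cells expressing a gene and less RNA per cell cannot be told apart.

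RAB38, the targeted gene, had log2 values of 2.52 and 3.43 in siRAB38 cells, against 4.69 and 4.78 in NT cells. Array medians lay between 3.47 and 3.51. Of the markers used to check the cells, VIM, CD44 and S100B had log2 values of 9.39 to 11.4 on the 4 arrays, while the astrocyte markers GFAP and AQP4 had 1.34 to 3.35, below the array medians. NES and SOX2 had 7.42 to 8.42, OLIG2 4.72 to 5.19 and SOX9 3.56 to 3.91. Some markers of other cell types also lay above the array medians, such as the immune gene CD68 at 7.51 to 8.27. The epithelial gene KRT8 was at 4.78 to 5.63. The neuronal gene SYT1 had exactly the same value, 6.12, on all 4 arrays, so its row is uncertain. Of 4 neuronal, 4 immune, 4 endothelial and 4 epithelial markers, 1 had siRAB38 arrays wholly above the NT arrays, the synaptic gene SNAP25, with 6.68 and 6.77 in siRAB38 cells against 6.09 and 6.09 in NT cells. The endothelial genes CLDN5 and CDH5 had the opposite order, at log2 fold changes of -0.38 and -0.20. Among all genes, 18.8% had the order of SNAP25 and 17.2% that of CLDN5 and CDH5. The part of these markers in the results below was not tested. In limma, a moderated linear model fitted to all genes at once, 0 of the 22458 genes (0.00%) passed an adjusted p of 0.05. An unadjusted p under 0.05 was reached by 697 genes lower with siRAB38 (3.10%) and by 842 genes higher (3.75%). Testing each gene on its own variance, with equal variances in both groups, also left 0 genes after adjustment, with 1473 at an unadjusted p under 0.05.

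FSTL1, ID3 and SMAD6 were the lowest of the 9 genes in siRAB38 cells relative to NT cells, at 55.9%, 61.6% and 70.7% of the NT level. In these 3 genes and in ID1, the higher siRAB38 array was still lower than the lower NT array. FST and SMAD7 showed the opposite order, and FSTL3, BMP4 and BMPR2 overlapped between the groups. The 4 genes of the first kind were 44.4% of the 9, where 17.2% of all genes had this order, and the 2 of the second kind were 22.2%, against 18.8% of all genes. At an unadjusted p under 0.05 in limma, 3 of the 9 genes, FSTL1 among them, were lower and 0 higher. Over all genes, 3.10% were lower and 3.75% higher at this threshold. None of the 9 passed the adjusted threshold. Since the list was built around a value of this same comparison, with earlier results known, these counts are descriptions. The same holds for the medians that follow, also without FSTL1. The median log2 fold change of the 9 genes was -0.16, against 0.005 over all genes, and -0.12 without FSTL1. It moved by over 1.5 times with any 1 array left out, to -0.10 without siRAB38 array 1, -0.052 without siRAB38 array 2, -0.068 without NT array 1 and -0.25 without NT array 2.

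**Figure D1:**
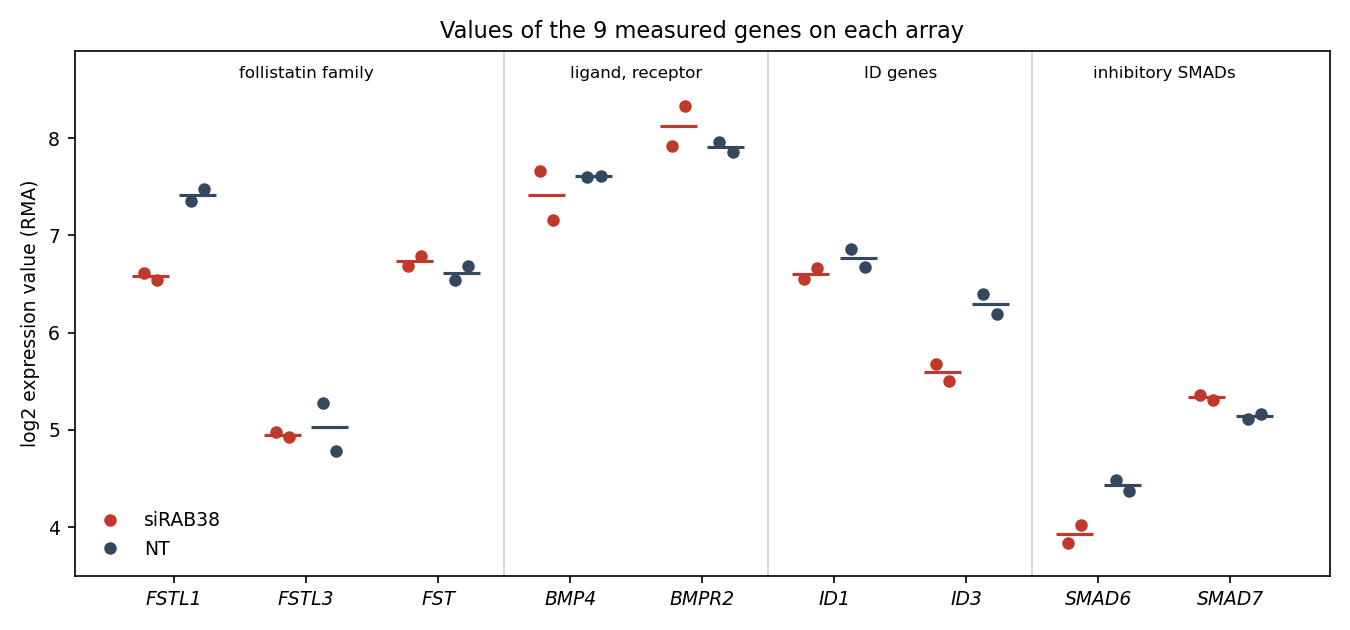
Each point is the RMA log2 value of a gene on 1 array, with siRAB38 to the left of NT and a bar at the mean of the 2 arrays. FSTL1, ID3 and SMAD6 show a clear space between the groups, whereas FSTL3, BMP4 and BMPR2 overlap.

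FSTL1 encodes a secreted glycoprotein with a follistatin domain that was first found as a TGF-beta-induced gene and that in mice antagonizes BMP4 in the developing lung. Its log2 values were 6.61 and 6.54 in siRAB38 cells, against 7.36 and 7.48 in NT cells. The means were 6.58 ± 0.049 in siRAB38 and 7.42 ± 0.084 in NT (SD, n = 2 each). The groups were separated by 0.74, several times the spread within either group. The log2 fold change was -0.84 (standard error 0.11), and 31 of the 22458 genes, FSTL1 included, were at least this low (0.138%). It ran from -0.90 to -0.78 when 1 array was left out. FSTL1 was chosen for its low value in this same comparison, so its rank, separation and range are descriptions only.

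The 250 bases before the annotated transcript start are shown for FSTL1, ID3 and SMAD6, the genes with the lowest relative values, and for SMAD7 and FST, whose arrays had the opposite order. They were read from RefSeq on GRCh38.p14 and are written 5′ to 3′ on the strand of the gene. Capitals mark matches to 3 motifs bound by SMADs: the palindrome GTCTAGAC, the shorter SMAD site CAGAC, read on either strand, and the GC-rich element GGCGCC. FSTL1 lies at chr3:120450993-120451242 (minus strand), ID3 at chr1:23559502-23559751 (minus), SMAD6 at chr15:66701986-66702235 (plus), SMAD7 at chr18:48950966-48951215 (minus, the outermost of 3 annotated starts) and FST at chr5:53480379-53480628 (plus).
FSTL1: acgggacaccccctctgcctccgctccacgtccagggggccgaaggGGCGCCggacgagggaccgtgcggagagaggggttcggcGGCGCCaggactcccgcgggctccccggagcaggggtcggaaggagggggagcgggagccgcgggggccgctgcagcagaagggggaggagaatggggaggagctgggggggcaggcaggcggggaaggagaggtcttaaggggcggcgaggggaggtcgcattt
ID3: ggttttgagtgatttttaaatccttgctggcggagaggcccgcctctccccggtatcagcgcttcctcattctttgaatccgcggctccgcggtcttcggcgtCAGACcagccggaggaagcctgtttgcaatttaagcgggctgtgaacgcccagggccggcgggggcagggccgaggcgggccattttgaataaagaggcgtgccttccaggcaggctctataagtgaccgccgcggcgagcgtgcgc
SMAD6: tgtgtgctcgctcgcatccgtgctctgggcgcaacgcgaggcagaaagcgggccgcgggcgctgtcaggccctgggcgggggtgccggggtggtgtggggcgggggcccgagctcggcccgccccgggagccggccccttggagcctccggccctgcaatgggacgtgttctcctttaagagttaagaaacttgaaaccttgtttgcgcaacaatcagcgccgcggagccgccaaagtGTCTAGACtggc
SMAD7: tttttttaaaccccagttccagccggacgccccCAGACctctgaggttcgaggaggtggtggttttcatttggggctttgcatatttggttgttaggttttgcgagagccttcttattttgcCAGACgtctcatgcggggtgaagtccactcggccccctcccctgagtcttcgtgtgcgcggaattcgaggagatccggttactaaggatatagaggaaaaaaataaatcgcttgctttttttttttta
FST: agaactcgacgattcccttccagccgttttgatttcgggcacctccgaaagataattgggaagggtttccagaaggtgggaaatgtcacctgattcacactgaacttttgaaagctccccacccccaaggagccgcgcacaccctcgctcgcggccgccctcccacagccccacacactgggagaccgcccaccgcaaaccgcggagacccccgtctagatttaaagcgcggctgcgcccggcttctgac

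The SMAD6 window carried the full palindrome GTCTAGAC, from 12 to 5 bases before the start. Among all 35116 promoter windows of this length, 64 (0.182%) held it on either strand. The FSTL1 window held GGCGCC at 2 places, an element present in 16.4% of all windows, and the ID3 and SMAD7 windows held CAGAC at 1 and 2 places, a motif present in 38.0%. Neither the FST nor the ID1 window held any of the 3 motifs. All 10 listed genes, ID2 included, matched the promoter table, with 14 windows between them, since BMP4 and SMAD7 each have 3 starts. Of these 14 windows, 1 held GTCTAGAC, 6 held CAGAC and 4 held GGCGCC, and 0 of the matches overlapped another. A match says only that the letters are there, and SMAD binding was not measured. Sequence outside these windows was not searched, so a window without a match does not show that the gene lacks SMAD sites.

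**Figure D2:**
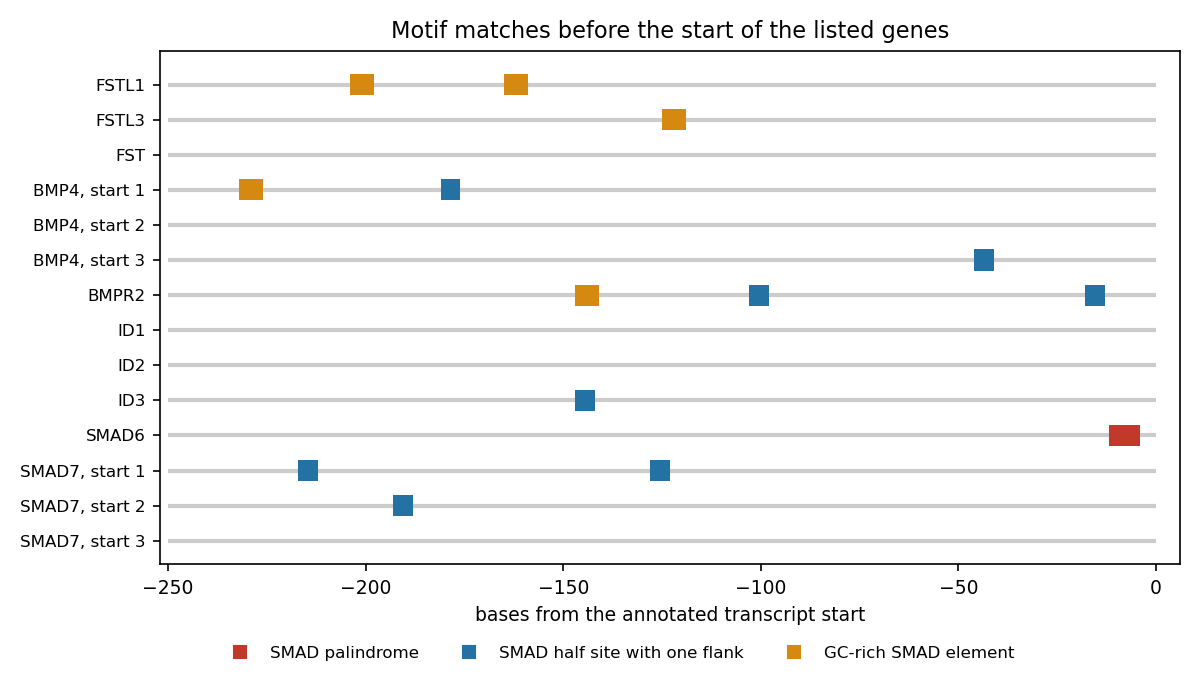
Positions of the motif matches in the 250 bases before each annotated start of the 10 listed genes. The horizontal axis gives the distance from the start in bases, each colored mark is a match on either strand, and SMAD6 alone among these windows carries the palindrome, 12 to 5 bases before the start.

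FST encodes follistatin, which binds activins and blocks their access to the receptor. It had log2 values of 6.69 and 6.79 in siRAB38 cells, against 6.54 and 6.68 in NT cells. The groups did not overlap, but the space between them was only 0.0073, and the order was lost when each array was centred on its own median. The log2 fold change was 0.13 (standard error 0.11).

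FSTL3 encodes a related activin-binding protein and had values of 4.98 and 4.92 in siRAB38 cells, against 5.27 and 4.78 in NT cells. Both siRAB38 arrays lay within the range of the NT arrays, and FSTL3 had a 95% confidence interval from -0.55 to 0.39 around its log2 fold change of -0.078. The 3 follistatin-type genes therefore had log2 fold changes of -0.84, 0.13 and -0.078. Of 12 other genes whose proteins share the follistatin domain, 11 were measured, with a median of -0.064. Among them, SPARC, a matrix glycoprotein of the same domain family as FSTL1, was 10.7 and 10.8 in siRAB38 cells against 10.7 and 10.7 in NT cells. HTRA1, a secreted serine protease, was the highest at 0.23 (standard error 0.10), and FSTL5 was the lowest at -0.23 (standard error 0.11). FSTL5 was dim, below the array medians on every array.

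BMP4, the ligand of the list, had log2 values of 7.66 and 7.16 in siRAB38 cells, against 7.60 and 7.61 in NT cells. The NT arrays lay within 0.01 of each other, while the siRAB38 arrays lay on either side of them. The log2 fold change of -0.19 (standard error 0.19, 95% confidence interval from -0.67 to 0.28) became 0.056 without siRAB38 array 2 and -0.45 without siRAB38 array 1. BMPR2, the type II receptor kinase that activates the type I receptors, had 7.92 and 8.33 in siRAB38 cells, against 7.96 and 7.86 in NT cells. Here too a single siRAB38 array carried the difference, which was 0.22 (standard error 0.17, 95% confidence interval from -0.21 to 0.64) on all arrays and 0.013 without siRAB38 array 2.

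The measured ID genes were both lower in siRAB38 cells, by unequal amounts. ID proteins have a helix-loop-helix domain but no basic region, so they bind E proteins and keep them off DNA. ID3 had log2 values of 5.68 and 5.50 in siRAB38 cells, against 6.40 and 6.19 in NT cells. The means were 5.59 ± 0.13 in siRAB38 and 6.29 ± 0.15 in NT (SD, n = 2 each), and the space of 0.51 between the groups exceeded the spread within them. The log2 fold change was -0.70 (standard error 0.13), from -0.80 to -0.60 with 1 array left out, and 71 genes (0.316%) were at least as low.

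ID1 had log2 values of 6.55 and 6.67 in siRAB38 cells, against 6.86 and 6.68 in NT cells. The groups were only 0.0077 apart, and they overlapped when quantile normalization was repeated, which left 3 of the 9 genes with siRAB38 lower. Its log2 fold change was -0.16 (standard error 0.12). The E protein genes, whose products the ID proteins bind, were all measured. Their log2 fold changes were -0.22 (standard error 0.13) for TCF3, -0.045 for TCF12 and 0.020 for TCF4, and the arrays of TCF12 and TCF4 overlapped. ID4, the remaining gene of the family, had 5.01 and 5.42 in siRAB38 cells, against 4.99 and 5.16 in NT cells, also with overlap.

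The inhibitory SMADs lay on opposite sides of NT. SMAD6, which acts mainly on BMP receptor signalling, had log2 values of 3.84 and 4.02 in siRAB38 cells, against 4.49 and 4.37 in NT cells. Its means were 3.93 ± 0.13 in siRAB38 and 4.43 ± 0.084 in NT (SD, n = 2 each). The log2 fold change was -0.50 (standard error 0.12), from -0.59 to -0.41 with 1 array left out, and 254 genes (1.13%) were at least as low.

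SMAD7, which binds the type I receptors of both branches and brings ubiquitin ligases to them, had 5.36 and 5.31 in siRAB38 cells, against 5.12 and 5.16 in NT cells. The arrays of each group lay close together and the groups did not overlap. The means were 5.34 ± 0.034 in siRAB38 and 5.14 ± 0.029 in NT (SD, n = 2 each). The log2 fold change was 0.20 (standard error 0.10), and it stayed between 0.17 and 0.22 with 1 array left out. Among all genes, 14.2% were at least as high.

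**Figure D3:**
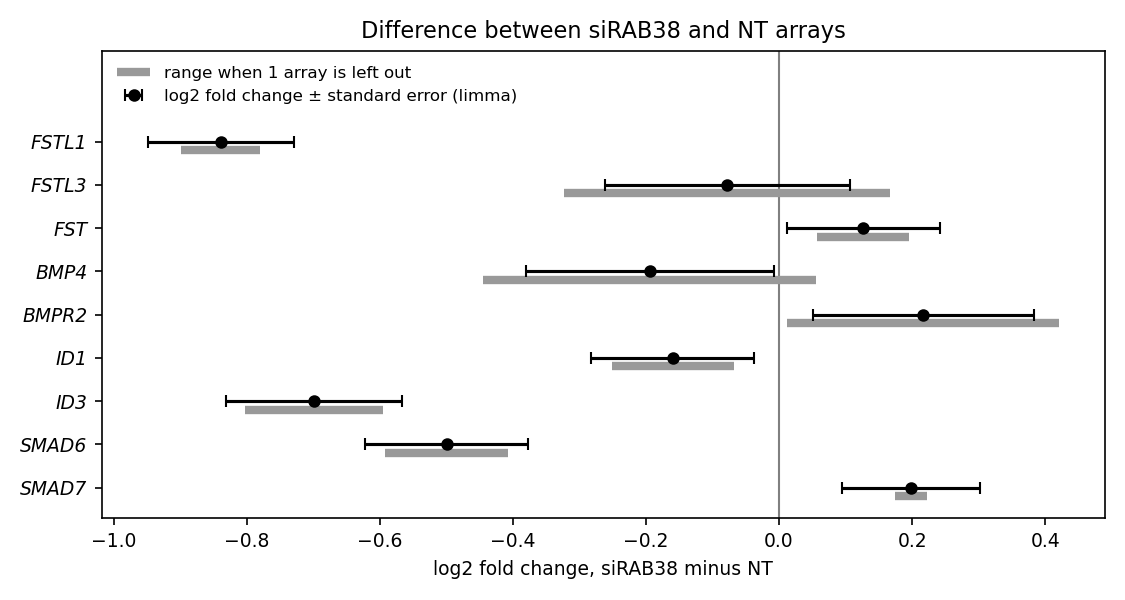
Log2 fold change of siRAB38 against NT for the 9 measured genes, with the limma standard error as whiskers and the range over the 4 fits that each leave out 1 array as a grey bar. The grey bars of FSTL3 and BMP4 cross 0. Those of FSTL1, ID3 and SMAD6 lie wholly below it, as they must where the groups do not overlap.

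The siRAB38 array with the lower RAB38 value did not have the lower value of every gene. Array 1, with RAB38 at 2.52, had 6.61 for FSTL1, 5.68 for ID3 and 3.84 for SMAD6. Array 2, with RAB38 at 3.43, had 6.54, 5.50 and 4.02 for the same genes. FSTL1 and ID3 were thus slightly lower in array 2 and SMAD6 in array 1.

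**Figure D4:**
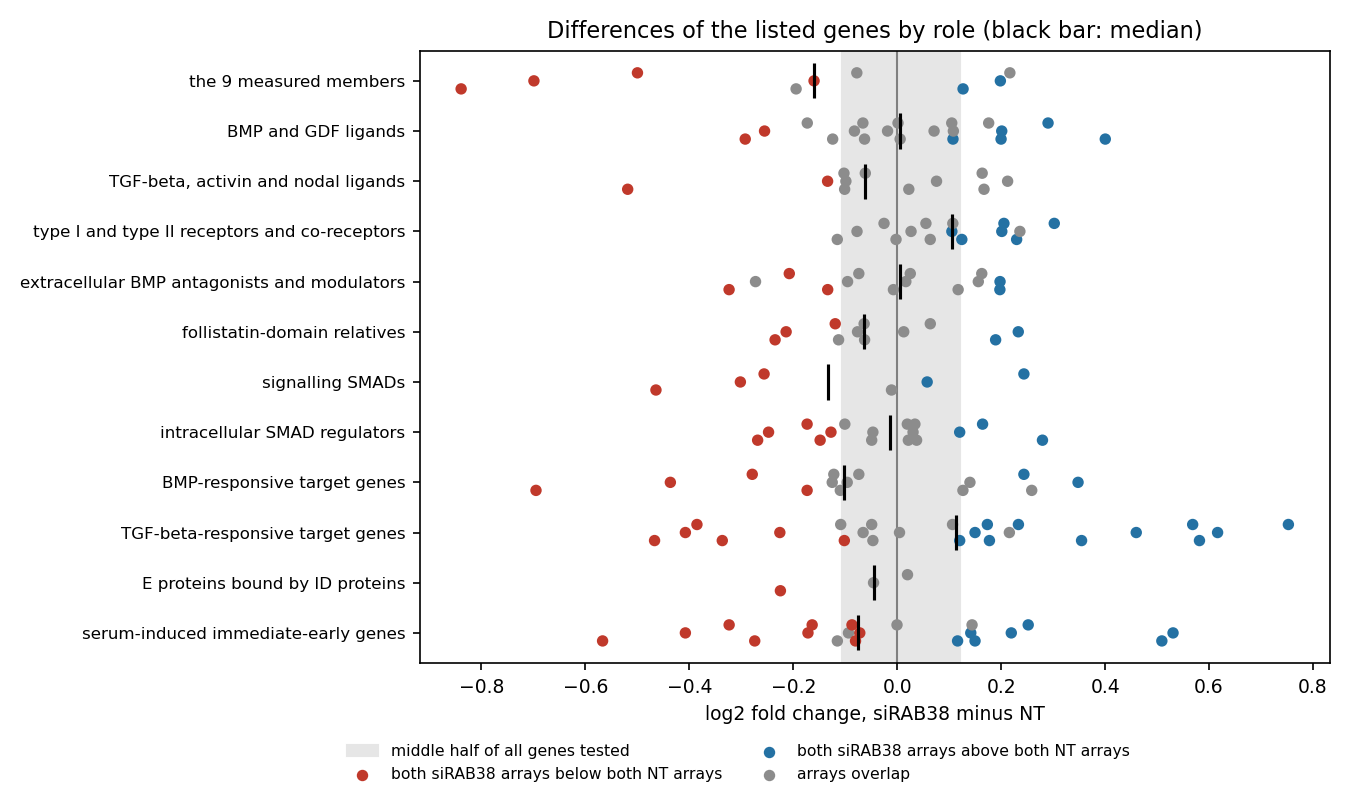
Log2 fold changes of the measured genes by role, siRAB38 minus NT. Each point is a gene, colored by whether its siRAB38 arrays lie below, above or among its NT arrays, black bars are medians and the grey band spans the quartiles of all 22458 genes. FSTL1, at -0.84, is the lowest point and CDKN1A, at 0.75, the highest.

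Further lists covered BMP and TGF-beta signalling, the genes that respond to it, follistatin-domain relatives and E proteins. Beyond the members, they held 132 genes, of which 127 were measured. None passed the adjusted threshold in limma, and 7 were lower and 7 higher at an unadjusted p under 0.05, where 3.10% and 3.75% of all genes were. The siRAB38 arrays were both lower than either NT array in 28 genes (22.0%, against 17.2% of all genes) and both higher in 31 (24.4%, against 18.8%). Their median log2 fold change was 0.0057.

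The SMADs that carry the signal to the nucleus had the lowest median of these lists, -0.13 over 6 genes. SMAD3, which transmits TGF-beta and activin signals, had log2 values of 7.37 and 7.36 in siRAB38 cells, against 7.81 and 7.84 in NT cells. Its log2 fold change was -0.46 (standard error 0.10, adjusted p = 0.72 from limma). SMAD1 and SMAD5, which transmit BMP signals, had log2 fold changes of -0.30 (standard error 0.12) and -0.26 (standard error 0.11), again without overlap of the arrays. SMAD2, the partner of SMAD3 in the TGF-beta branch, had overlapping arrays and -0.011. SMAD4, shared by both branches, had 0.058, and SMAD9, also of the BMP branch, had 0.24 (standard error 0.11). In SMAD4 and SMAD9 the siRAB38 arrays lay wholly above the NT arrays. SMAD9 was dim, below the array medians on every array. Of the 6 genes, 3 thus had siRAB38 arrays wholly below the NT arrays and 2 wholly above. Among all genes, 17.2% and 18.8% had these orders.

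Receptors and co-receptors had mostly positive log2 fold changes. Of 15 measured genes, 11 lay above 0, with a median of 0.11. The groups were apart with siRAB38 higher in 6 of them (40.0%, against 18.8% of all genes) and with siRAB38 lower in 0 (against 17.2%). ACVR1, a type I receptor for BMPs, had 7.28 and 7.28 in siRAB38 cells, against 7.12 and 7.19 in NT cells. TGFBR1, the type I receptor for TGF-beta, had 6.37 and 6.36 in siRAB38 cells, against 6.09 and 6.24 in NT cells (log2 fold change 0.20, standard error 0.11). The differences of these receptors were smaller than those of ID3 and SMAD6. ACVR1C, a nodal receptor, had the highest log2 fold change of the group, 0.30 (standard error 0.11), and ACVR1B, a receptor for activin, the lowest, -0.12 (standard error 0.13). ACVR1C was dim, below the array medians on every array. Arrays overlapped in TGFBR2, ACVR2A and BMPR1B, and BMPR1A was not analysed here.

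Ligands and extracellular antagonists had medians near 0. The 19 further BMP and GDF ligands had a median log2 fold change of 0.0057. GDF15, a stress-induced member of the family, was the highest, with 7.45 and 7.23 in siRAB38 cells against 6.86 and 7.01 in NT cells (log2 fold change 0.40, standard error 0.13). BMP2, the closest relative of BMP4, was the lowest at -0.29 (standard error 0.14). The 11 TGF-beta, activin and nodal ligands had a median of -0.061, from -0.52 (standard error 0.21) for the inhibin subunit INHBE to 0.21 for INHA. INHBA, which encodes the activin subunit that follistatin binds, had 5.28 and 5.35 in siRAB38 cells, against 5.52 and 5.23 in NT cells. Of 14 measured antagonists and modulators, 7 lay above 0 and 7 below, from -0.32 for CER1 to 0.20 for CHRD and CHRDL2. BMP2, INHBE, INHA, CER1 and CHRD were dim, below the array medians on every array. Intracellular regulators of SMADs had 8 of 16 on each side, with SKI, a SMAD corepressor, at 0.28 and TGIF2, another corepressor, at -0.27.

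Genes known to respond to BMP lay on both sides of 0 as well. Of 14 measured, 9 lay below 0, with a median of -0.10. DLX2, a homeobox gene, had log2 values of 4.99 and 4.93 in siRAB38 cells, against 5.59 and 5.72 in NT cells. At -0.69 (standard error 0.11, adjusted p = 0.72 from limma) its log2 fold change was close in size to that of ID3. ATOH8, a helix-loop-helix factor, had 4.37 and 4.21 in siRAB38 cells, against 4.72 and 4.72 in NT cells, with -0.44 (standard error 0.11) as its log2 fold change. MSX2 and HEY1 lay above 0, at 0.35 and 0.26, and HEY1 overlapped between the groups. MSX2 was dim, below the array medians on every array.

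Genes known to respond to TGF-beta spread widely. Of 24 measured, 6 (25.0%) had siRAB38 arrays wholly below the NT arrays, against 17.2% of all genes, and 11 (45.8%) wholly above, against 18.8%. Here the median log2 fold change was 0.11. CDKN1A, which encodes the cell cycle inhibitor p21 and is also a p53 target, had 6.01 and 5.80 in siRAB38 cells, against 5.05 and 5.25 in NT cells. Its log2 fold change was 0.75 (standard error 0.14, adjusted p = 0.72 from limma). ADAM12, a membrane metalloprotease, had 7.70 and 7.59 in siRAB38 cells, against 7.04 and 7.02 in NT cells (log2 fold change 0.62, standard error 0.11). CCN2, the matricellular growth factor CTGF, had 7.45 and 7.51 in siRAB38 cells, against 7.95 and 7.83 in NT cells (log2 fold change -0.41, standard error 0.11). EDN1, the endothelin gene, was the lowest of the group at -0.47 (standard error 0.10).

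ID genes are also induced by serum, which both groups received alike a day before lysis. Whether serum had a part in the ID values was not tested, and the genes below cannot tell. Of 20 measured immediate-early genes of the serum response, 12 had negative and 8 positive log2 fold changes, and the median was -0.076. FOSB and ATF3 were the highest, at 0.53 (standard error 0.12) and 0.51 (standard error 0.16), and MYC and CCN2 the lowest, at -0.57 (standard error 0.22) and -0.41.

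To see which genes had a pattern like that of FSTL1, each gene was centred on its mean over the 4 arrays, and the Euclidean distance to FSTL1 was taken on the log2 scale. The nearest of the 22457 other genes was POMK, a kinase of O-mannosyl glycans, at a distance of 0.050, with 5.62 and 5.62 in siRAB38 cells against 6.41 and 6.52 in NT cells. It was followed by TTLL12 at 0.095, by PSAT1, an enzyme of serine synthesis, at 0.11, by MAGEA12 at 0.12 and by the immunoglobulin segment IGHV1-46 at 0.13. MAGEA12 and IGHV1-46 have close relatives in the genome, so their rows are uncertain. With 4 arrays, such likeness describes these arrays only.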

How the data were processed

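Total RNA from the 4 samples was labelled with the WT Plus kit, and the authors deposited 1 table of log2 values made by RMA, which corrects background, forces all arrays to a shared distribution and combines probes into 1 value per row. Differences of dim genes are compressed by it, and a shift of all genes one way is lost. According to the processing notes of the submitters, affy 1.60.0 under R 3.5.1 was used. The grouping of probes into rows and the genome build are not given in the sources used here. Of 23786 rows, 22458 had 1 gene symbol in the platform annotation, 0 had several and 1328 had none. Groups came from the sample titles.

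Values were fitted with limma 3.58.1 in R 4.3.3 (lmFit, eBayes without trend, prior degrees of freedom 3.15), with Benjamini-Hochberg adjustment over the 22458 genes, and the script was tested on simulated data. Rows without a symbol were left out, with no filter on low signal. Standard errors and 95% confidence intervals are from this fit. Array number limits the precision: an exact permutation test of 2 against 2 arrays cannot go below p = 0.333. Members, lists and motifs were chosen with earlier results of these data known. Named genes are the members, RAB38, the main receptors and SMADs, the 2 highest and 2 lowest of each list and the 5 nearest to FSTL1; SPARC and the cell type markers given with values were picked after their values were seen. Promoter sequences are from RefSeq (GRCh38.p14), written on the strand of the gene. Alternatives covered normalization, dim genes, rows tested, variance prior, array weights, a replicate block, the methods' t-test (named there for the study's data in general, with the array test not described) and leaving out each array.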

Additional observations from a re-analysis of the deposited data

How the results depend on the processing

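No alternative gave a gene past the adjusted p of 0.05 in limma, where 1539 genes had an unadjusted p under 0.05, or in the methods' t-test, where 1473 did. The smallest adjusted p over the alternatives ran from 0.366, with a trend in the variance prior, to 0.968, without NT array 1. With the replicate number as a block, 1249 genes had an unadjusted p under 0.05 in limma. In this balanced design such a block cannot change a fold change, so FSTL1 stayed at -0.84 by construction. Same-numbered arrays did not deviate together over genes (correlation of deviations -0.055). The labels do not say whether same-numbered arrays came from the same experiment, and this value cannot decide it. FSTL1, ID1, ID3, SMAD6, SMAD7, FST and BMPR2 kept their sign under all 8 alternatives that give a fold change, and FSTL3 and BMP4 under 7 of 8. Among these 8, array weights and the replicate block gave the same fold changes as the main fit, so neither tests the sign. The groups of FSTL1, ID1, ID3, SMAD6, SMAD7 and FST did not overlap. For these genes, leaving out 1 array cannot change the sign either. The FSTL1 value ran from -0.90 to -0.78. The median of the 9 genes depended on single arrays. It was -0.10 without siRAB38 array 1, -0.052 without siRAB38 array 2, -0.068 without NT array 1 and -0.25 without NT array 2. The number of the 9 genes with all siRAB38 arrays above all NT arrays was 1 with arrays centred on their medians, where FST dropped out, and 2 to 4 with 1 array left out (4 without NT array 1). The number with all siRAB38 arrays below all NT arrays was 3 with quantile normalization repeated, where ID1 dropped out, and 4 to 5 with 1 array left out. With 1 array left out, both counts can only stay or rise, since fewer arrays have to keep the order. The cause of the other shifts was not tested. RMA compresses the differences of dim genes, and no call of detection over background was used.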
